A study of Homo sapiens with 60 samples.

Results

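The genes described here are the enzymes, carriers and sugar precursor enzymes that remodel N-glycans in the Golgi. They were chosen by name from the known function of their products and are 32 of the 42141 genes listed in the RNAseq table. The mRNA was measured in 5 lines of HEK293-EBNA1-6E cells, an established line of human kidney origin that expresses a viral EBNA1 gene. The lines were unmodified WT cells and cells in which ALG6 (ALG6-/-), ALG6 and UGGT1 (ALG6/UGGT1-/-), ALG6 and UGGT2 (ALG6/UGGT2-/-) or all 3 genes (ALG6/UGGT1/UGGT2-/-) had been disrupted, so every line other than WT shared the loss of ALG6. Each line gave 3 biological replicates, grown for 48 hours, and hence 15 poly(A) mRNA libraries. The knockout lines came from single-cell colonies and 1 line of each genotype was sequenced, so the genotype and the clone cannot be told apart, and p-values measure the spread between cultures of 1 clone.

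ALG6 is the glucosyltransferase that begins glucose addition to the lipid-linked N-glycan precursor in the endoplasmic reticulum (ER), and UGGT1 and UGGT2 put a glucose back on glycans of incompletely folded glycoproteins there. After the ER, Golgi mannosidases trim the mannose residues of the glycan and N-acetylglucosaminyltransferases (MGAT enzymes) start its branches. Galactosyltransferases and sialyltransferases complete the branches, and a fucosyltransferase adds fucose to the innermost N-acetylglucosamine. These enzymes draw on sugar nucleotides that SLC35 carriers bring into the Golgi lumen, and CMP-sialic acid is made beforehand by GNE, NANS, NANP and CMAS.

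Values are CPM as deposited, the reads of a gene per 1000000 in its library, and 1 CPM was worth 23.6 to 27.2 estimated reads, judged from the smallest step between values. All 32 genes passed the filter of at least 1 CPM in at least 3 libraries, which kept 14692 genes, and their lowest value was 3.77 CPM. ALG6 mRNA was at 14.3 ± 1.48 CPM (SD, n = 3) in WT cells and at line means between 1.14 and 4.67 CPM in the knockout lines. UGGT1 mRNA was at 18 to 28.9 and 31.0 to 33.1 CPM in the lines with disrupted UGGT1, below the 43.1 to 79.8 of WT and the 59.5 to 77.6 of ALG6/UGGT2-/- cells, but it ran from 13.1 to 83.9 in ALG6-/- cells, whose lowest library lay below every UGGT1 knockout library. UGGT2 mRNA in the lines with disrupted UGGT2 (line means 14.3 and 14.6) lay between those of the other lines (10.9 to 18.3), so mRNA level checked neither UGGT label in full. Of 6 kidney and neural markers of HEK293 cells, 5 had a mean of at least 1 CPM in every line, the exception being NEFM, and their sum was 809 to 951 CPM in ALG6-/- against 533 to 593 in WT cells. The summed blood markers reached at most 0.0808 CPM and the hepatocyte markers 0.442 CPM. The 4 fibroblast markers summed to 71.8 to 77.2 CPM in ALG6-/-, 37.6 to 56.5 in WT and 46.7 to 59.3 in the other lines, nearly all of it COL1A1, with COL1A2 at 0 in every ALG6-/- library, and the part of these lists in the results was not tested. The 13 mitochondrial mRNAs took 5.15 to 7.38% of the CPM. The ALG6-/- line stood apart from the rest, least so in replicate 1. The median ratio of a library's genes to their geometric mean over all libraries was 0.9161, 0.6689 and 0.7955 in its replicates 1 to 3. WT replicate 3 was next at 0.9414. The all-gene median log2 fold change against WT was -0.44 in ALG6-/-, 0.07 in ALG6/UGGT1-/-, 0.03 in ALG6/UGGT2-/- and -0.03 in ALG6/UGGT1/UGGT2-/- cells. Against ALG6-/- it was 0.52, 0.46 and 0.36 in the same order of lines. Not every called pairwise difference that involves the ALG6-/- line is given. Those given with an SE, on the CPM scale, are also set against that median. All fold changes are differences of log2(CPM + 0.5). Across all genes with annotated transcripts the ALG6-/- against WT fold change followed transcript GC content (Spearman's rho = 0.412, 13357 genes) and length (rho = -0.315). Among the 32 genes these values were 0.414 and -0.0535. WT replicate 3 and ALG6-/- replicate 2 were the libraries lowest for long transcripts, and each comparison was also fitted after a correction for length and GC content.

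Of the 32 genes, 24 differed between the 5 lines in limma's F test at an adjusted p under 0.05, against 81.2% of all genes tested. Called genes lay in both directions in every line, and the median log2 fold change against WT was -0.31 in ALG6-/-, 0.14 in ALG6/UGGT1-/-, 0.00134 in ALG6/UGGT2-/- and 0.08 in ALG6/UGGT1/UGGT2-/- cells. These are bulk libraries, in which fewer cells that make an mRNA and less of it per cell cannot be told apart. In ALG6-/- against WT cells, 5 of the 32 genes were higher and 10 lower at an adjusted p under 0.05, with 15.1% and 45.7% of all genes tested called in these directions. In ALG6/UGGT1-/- cells 5 of the 32 genes were higher and 7 lower than in WT, beside 10.3% and 13.8% of all genes. In ALG6/UGGT2-/- cells 3 were higher and 4 lower, beside 6.14% and 7.75%. ALG6/UGGT1/UGGT2-/- cells had 4 of the 32 higher and 5 lower than WT, beside 13.5% and 22.0% of all genes. Against ALG6-/- cells, 16 genes were higher and 7 lower in ALG6/UGGT1-/- (all genes 53.1% and 20.4%), 12 and 7 in ALG6/UGGT2-/- (all genes 48.6% and 18.8%), and 11 and 6 in ALG6/UGGT1/UGGT2-/- cells (all genes 43.5% and 17.6%). All 3 ALG6-/- libraries lay above the other 12 for 3 of the genes (B4GALT3, ST6GAL1 and ST3GAL3), which was so for 8.88% of all genes, and below them for 5 (MAN2A2, MGAT2, MGAT3, SLC35A1 and SLC35A2), which was so for 24.2% of all genes. Each count of 0 given by role was also 0 at limma's unadjusted p under 0.05, apart from 1 named there. After the libraries were rescaled by their median ratios, 8 genes were higher and 4 lower in ALG6-/- than in WT cells (all genes 26.6% and 25.6%), and after the length and GC correction 17 were higher and 5 lower (all genes 32.6% and 29.0%).

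**Figure D1:**
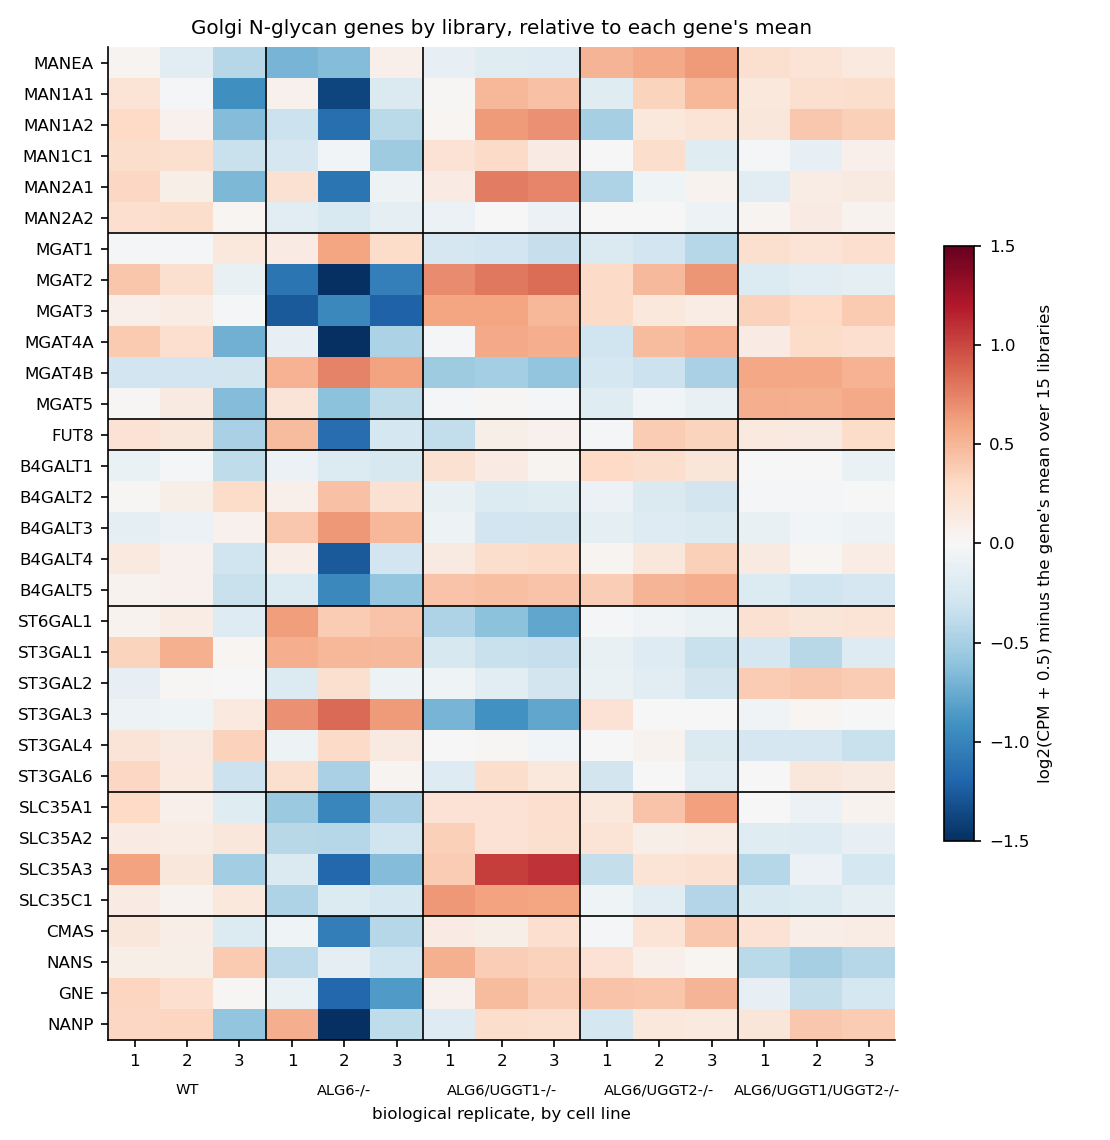
log2(CPM + 0.5) of the 32 genes (rows, ordered by role) in the 15 libraries (columns, 3 biological replicates per line) as the difference from each gene's mean over all libraries. The colour scale ends at 1.5 in either direction, and ALG6-/- replicate 2 and WT replicate 3 are low for many genes at once, while MGAT2 and MGAT3 are low and ST3GAL3 and MGAT4B high in all 3 ALG6-/- libraries.

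Promoters of 3 of the genes that were low in ALG6-/- cells on the CPM scale were chosen after their values had been seen and are shown for their sequence context: MGAT2, which starts a branch, B4GALT5, a galactosyltransferase, and NANS, a sialic acid synthase. The sequences are from RefSeq on GRCh38.p14, are printed 5′ to 3′ on the gene's strand and end 1 base before the annotated start, and the MGAT2 window is limited to its 172 bases that overlap no annotated exon. Capitals mark matches on either strand to the GC box, spelled GGGCGG, the box named for its letters CCAAT, and the core TGACGTG that unfolded protein response factors bind. Neighbouring or overlapping matches run together.
MGAT2 chr14:49620627-49620798 (plus strand): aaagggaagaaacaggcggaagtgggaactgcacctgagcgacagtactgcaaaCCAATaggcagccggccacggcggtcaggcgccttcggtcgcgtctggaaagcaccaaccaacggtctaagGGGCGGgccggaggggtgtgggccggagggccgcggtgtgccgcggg
B4GALT5 chr20:49713879-49714128 (minus strand): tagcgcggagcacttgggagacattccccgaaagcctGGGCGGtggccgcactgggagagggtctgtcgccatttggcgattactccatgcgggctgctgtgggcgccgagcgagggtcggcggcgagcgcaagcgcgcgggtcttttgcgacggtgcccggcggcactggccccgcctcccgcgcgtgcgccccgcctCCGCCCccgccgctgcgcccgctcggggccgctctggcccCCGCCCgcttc
NANS chr9:98056482-98056731 (plus strand): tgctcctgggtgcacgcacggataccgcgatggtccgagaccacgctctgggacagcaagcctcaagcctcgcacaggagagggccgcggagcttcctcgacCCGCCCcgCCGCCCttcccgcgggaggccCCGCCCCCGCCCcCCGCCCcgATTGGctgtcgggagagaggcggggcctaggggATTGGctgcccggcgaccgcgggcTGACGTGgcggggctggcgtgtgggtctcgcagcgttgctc
The MGAT2 window held 1 GC box and 1 CCAAT box, the B4GALT5 window 3 GC boxes and no CCAAT box, and the NANS window 5 GC boxes, 2 CCAAT boxes and 1 TGACGTG core. In the table, 27 of the 32 genes matched, with 53 annotated starts between them. Of these 53 windows of 250 bases, 34 held a GC box (42.6% of all 35114 windows did), 16 a CCAAT box (32%), 2 the TGACGTG core (1.68%, here MGAT1 and NANS), 0 the cyclic AMP response element TGACGTCA (1.65%) and 0 the ER stress response element, CCAAT and CCACG a fixed gap apart (0.0740%). These matches describe the letters only, and several genes have more than 1 annotated start.

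Among the mannosidases, MAN2A2 was lower in ALG6-/- and ALG6/UGGT1-/- than in WT cells and MANEA was higher in ALG6/UGGT2-/- than in WT cells. Of the 6 mannosidases, 0 were higher and 1 lower in ALG6-/- than in WT cells (median log2 fold change -0.30, all genes -0.44), and in ALG6/UGGT1-/- cells 1 was lower and none higher. The shares of all genes called higher and lower were 15.1% and 45.7% in ALG6-/- and 10.3% and 13.8% in ALG6/UGGT1-/- cells. After the length and GC correction 4 of the 6 were higher in ALG6-/- than in WT cells (all genes 32.6%). Among these were MANEA at 0.44 (adjusted p = 0.000523) and MAN1A2 at 0.46 (adjusted p = 0.000697). Neither of these 2 was called there after median ratio scaling (adjusted p = 0.412 and 0.729). MANEA, the Golgi endomannosidase, removes a glucose together with the mannose it sits on and so serves glycans that leave the ER with glucose attached. MANEA (chr6:95577485-95609470, plus strand) was at 19.7, 17.0 and 14.1 CPM in the WT libraries and 11.6, 12.0 and 20.3 in ALG6-/- cells. MANEA had 17.5, 16.8 and 16.7 in ALG6/UGGT1-/-, 27.5, 28.6 and 30.0 in ALG6/UGGT2-/- and 22.6, 22.1 and 21.2 in ALG6/UGGT1/UGGT2-/- cells. All 3 ALG6/UGGT2-/- values lay above those of the other 12 libraries, and ALG6-/- replicates 1 and 2 were the lowest of all while replicate 3 lay above every WT library. MANEA had a log2 fold change against WT of 0.75 (SE 0.18, adjusted p = 0.0136) in ALG6/UGGT2-/- cells. MANEA differed from ALG6-/- cells by 0.99 (SE 0.18, adjusted p = 0.000349, 0.53 from the all-gene median) in ALG6/UGGT2-/- and 0.61 (SE 0.18, adjusted p = 0.0104, 0.25 from the all-gene median) in ALG6/UGGT1/UGGT2-/- cells. MAN1A2, MAN1A1 and MAN1C1 are the Golgi class I enzymes, which trim mannose before the first branch is started. MAN1A2 (chr1:117367449-117528872, plus strand) was at 48.7, 41.4 and 25.03 CPM in the WT libraries and 31.7, 17.8 and 29.8 in ALG6-/- cells. MAN1A2 had 40.5, 61.7 and 63.8 in ALG6/UGGT1-/-, 28.0, 44.2 and 45.7 in ALG6/UGGT2-/- and 44.4, 52.5 and 50.9 in ALG6/UGGT1/UGGT2-/- cells. ALG6-/- replicate 2 and WT replicate 3 were the lowest of the 15, and the ranges of all 5 lines overlapped at least 1 other line's. MAN1A2 differed from ALG6-/- cells by 1.07 (SE 0.29, adjusted p = 0.0053, 0.55 from the all-gene median) in ALG6/UGGT1-/- and 0.93 (SE 0.29, adjusted p = 0.0155, 0.57 from the all-gene median) in ALG6/UGGT1/UGGT2-/- cells. With length and GC content corrected, the MAN1A2 difference turned to -0.37 (adjusted p = 0.00238) in ALG6/UGGT1-/- and -0.11 (adjusted p = 0.292) in ALG6/UGGT1/UGGT2-/- cells, and that of MANEA shrank to 0.05 (adjusted p = 0.635) in ALG6/UGGT2-/- and 0.07 (adjusted p = 0.504) in ALG6/UGGT1/UGGT2-/- cells. Leaving out ALG6/UGGT2-/- replicate 3 ended the MANEA call against WT (0.72 (adjusted p = 0.0551)), and leaving out ALG6-/- replicate 2 ended that of MAN1A2 in ALG6/UGGT1/UGGT2-/- cells (0.67 (adjusted p = 0.0688)).

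MAN2A1 and MAN2A2, the mannosidase II and IIx enzymes, remove mannose once MGAT1 has acted and so open the way to complex glycans. The line means of MAN2A2 ranged from 197 to 254 CPM, and its log2 fold change against WT was -0.36 (SE 0.067, adjusted p = 0.000644) in ALG6-/- and -0.24 (SE 0.067, adjusted p = 0.0216) in ALG6/UGGT1-/- cells. After median ratio scaling no mannosidase, MAN2A2 included, was called lower in ALG6/UGGT1-/- than in WT cells. Relative to the median of all genes the ALG6-/- value of MAN2A2 was 0.08. After the length and GC correction the ALG6-/- value was 0.05 (adjusted p = 0.651). MAN1A1, MAN1C1 and MAN2A1 did not pass the F test, with line means of 26.4 to 43.8, 6.38 to 9.05 and 8.39 to 14.8 CPM. After that correction MAN2A1 was higher in ALG6-/- than in WT cells by 0.70 (adjusted p = 8.78e-06) and MAN1A1 by 0.52 (adjusted p = 0.00163), against -0.23 and -0.26 on the CPM scale, neither of which was called. In ALG6/UGGT1-/- against ALG6-/- cells MAN2A1 was called at 0.86 (SE 0.33, adjusted p = 0.0337, 0.34 from the all-gene median) and MAN1C1 at 0.49 (SE 0.18, adjusted p = 0.0251, -0.03 from the all-gene median), which the correction took to -0.45 (adjusted p = 0.00027) and 0.41 (adjusted p = 0.0246), and neither was called after median ratio scaling (adjusted p = 0.172 and 0.957).

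The branching enzymes gave the widest differences between lines, in opposite directions. In ALG6-/- cells MGAT2 and MGAT3 mRNA was lower than in WT, to 0.365 and 0.436 of the WT level, while MGAT4B was 1.88-fold higher and MGAT1 1.22-fold higher, so that 2 of 6 were higher and 2 lower, with a median log2 fold change of -0.43 (all genes -0.44). In ALG6/UGGT1/UGGT2-/- cells MGAT4B, MGAT5 and MGAT3 were higher than in WT and none of the 6 was lower. Shares of all genes called higher and lower were 15.1% and 45.7% in ALG6-/- and 13.5% and 22.0% in ALG6/UGGT1/UGGT2-/- cells. MGAT1 adds the first N-acetylglucosamine and so commits the glycan to hybrid and complex forms. MGAT1 (chr5:180784780-180815652, minus strand) was at 86.2, 86.1 and 96.8 CPM in the WT libraries and 94.95, 131 and 106 in ALG6-/- cells. MGAT1 had 73.0, 71.0 and 68.1 in ALG6/UGGT1-/-, 74.9, 71.1 and 64.7 in ALG6/UGGT2-/- and 103, 100.04 and 104 in ALG6/UGGT1/UGGT2-/- cells. The ALG6/UGGT1-/- and ALG6/UGGT2-/- libraries were below all the others, ALG6-/- replicate 1 lay within the WT range, and ALG6-/- replicate 2 was the highest. MGAT1 had a log2 fold change against WT of -0.34 (SE 0.10, adjusted p = 0.0309) in ALG6/UGGT1-/- and -0.35 (SE 0.10, adjusted p = 0.0407) in ALG6/UGGT2-/- cells. In ALG6-/- cells the MGAT1 value, not among the 10 largest there, was 0.29 (SE 0.10, adjusted p = 0.0286, 0.73 from the all-gene median). Rescaling by median ratios ended the MGAT1 calls in ALG6/UGGT1-/- (-0.41 (adjusted p = 0.177)) and ALG6/UGGT2-/- cells (-0.37 (adjusted p = 0.331)), as did the length and GC correction (-0.41 (adjusted p = 0.167) and -0.38 (adjusted p = 0.253)). The first of these calls was also lost without any 1 of the 6 WT and ALG6/UGGT1-/- libraries (adjusted p up to 0.104), and the second without any of 12 libraries (adjusted p up to 0.161), all but ALG6-/- replicates 1 and 2 and ALG6/UGGT2-/- replicate 1.

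MGAT2 starts the branch on the other arm of the glycan and is needed for complex N-glycans. MGAT2 (chr14:49620799-49623481, plus strand) was at 51.0, 45.0 and 35.2 CPM in the WT libraries and 17.5, 11.4 and 18.4 in ALG6-/- cells. MGAT2 had 62.3, 66.1 and 68.1 in ALG6/UGGT1-/-, 46.5, 53.2 and 60.6 in ALG6/UGGT2-/- and 32.9, 34.1 and 34.2 in ALG6/UGGT1/UGGT2-/- cells. The 3 ALG6-/- values were the lowest of the 15 and the 3 ALG6/UGGT1-/- values the highest, and the ALG6/UGGT1/UGGT2-/- values lay between those of ALG6-/- and WT cells. MGAT2 had a log2 fold change against WT of -1.46 (SE 0.17, adjusted p = 1.76e-05, -1.02 from the all-gene median) in ALG6-/- and 0.59 (SE 0.17, adjusted p = 0.0247) in ALG6/UGGT1-/- cells. MGAT2 differed from ALG6-/- cells by 2.05 (SE 0.17, adjusted p = 5.03e-07, 1.53 from the all-gene median) in ALG6/UGGT1-/-, 1.75 (SE 0.17, adjusted p = 2.53e-06, 1.29 from the all-gene median) in ALG6/UGGT2-/- and 1.10 (SE 0.17, adjusted p = 0.000204, 0.74 from the all-gene median) in ALG6/UGGT1/UGGT2-/- cells. In ALG6/UGGT1/UGGT2-/- against WT cells the value was -0.35 (SE 0.17, adjusted p = 0.139), which was not called. With length and GC corrected, MGAT2 was at -1.05 (adjusted p = 3.07e-06) in ALG6-/- against WT cells, and it was called there in every alternative, with values from -1.60 to -0.97. The call in ALG6/UGGT1-/- against WT cells was lost without WT replicate 2 or 3 or ALG6/UGGT1-/- replicate 2 or 3 (log2 fold change 0.45 to 0.62, adjusted p 0.0534 to 0.0958). MGAT3 adds the bisecting N-acetylglucosamine, which blocks further branching. MGAT3 (chr22:39457012-39492194, plus strand) was at 49.5, 50.7 and 45.7 CPM in the WT libraries and 19.3, 23.7 and 19.9 in ALG6-/- cells. MGAT3 had 71.0, 70.9 and 66.1 in ALG6/UGGT1-/-, 57.3, 52.2 and 50.5 in ALG6/UGGT2-/- and 59.6, 57.4 and 61.5 in ALG6/UGGT1/UGGT2-/- cells. The ALG6-/- values were again below all others, and the ALG6/UGGT1-/- values above all others. MGAT3 had a log2 fold change against WT of -1.20 (SE 0.087, adjusted p = 3.04e-07, -0.76 from the all-gene median) in ALG6-/-, 0.51 (SE 0.087, adjusted p = 0.00107) in ALG6/UGGT1-/- and 0.29 (SE 0.087, adjusted p = 0.0192) in ALG6/UGGT1/UGGT2-/- cells. MGAT3 differed from ALG6-/- cells by 1.71 (SE 0.087, adjusted p = 8.24e-09, 1.19 from the all-gene median) in ALG6/UGGT1-/-, 1.33 (SE 0.087, adjusted p = 7.78e-08, 0.87 from the all-gene median) in ALG6/UGGT2-/- and 1.49 (SE 0.087, adjusted p = 8.90e-08, 1.13 from the all-gene median) in ALG6/UGGT1/UGGT2-/- cells. The MGAT3 calls against WT were lost after median ratio scaling in ALG6/UGGT1-/- (0.44 (adjusted p = 0.0844)) and ALG6/UGGT1/UGGT2-/- cells (0.33 (adjusted p = 0.148)), and the latter also after the length and GC correction (0.28 (adjusted p = 0.0504)) or without WT replicate 3, or ALG6/UGGT1/UGGT2-/- replicate 1 or 3 (adjusted p up to 0.0722).

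MGAT4B, which adds a further branch to the arm that MGAT1 acts on, had high values in both ALG6-/- and ALG6/UGGT1/UGGT2-/- cells. MGAT4B (chr5:179797597-179806952, minus strand) was at 84.2, 84.0 and 84.5 CPM in the WT libraries and 147, 172 and 157 in ALG6-/- cells. MGAT4B had 70.7, 72.3 and 68.1 in ALG6/UGGT1-/-, 85.6, 81.9 and 73.2 in ALG6/UGGT2-/- and 154, 154 and 148 in ALG6/UGGT1/UGGT2-/- cells. The ALG6-/- and ALG6/UGGT1/UGGT2-/- ranges overlapped each other and lay above the other 9 libraries, and the ALG6/UGGT1-/- libraries were the lowest. MGAT4B had a log2 fold change against WT of 0.91 (SE 0.071, adjusted p = 5.65e-07, 1.35 from the all-gene median) in ALG6-/-, -0.26 (SE 0.071, adjusted p = 0.019) in ALG6/UGGT1-/- and 0.85 (SE 0.071, adjusted p = 2.38e-06) in ALG6/UGGT1/UGGT2-/- cells. MGAT4B differed from ALG6-/- cells by -1.16 (SE 0.071, adjusted p = 3.37e-08, -1.68 from the all-gene median) in ALG6/UGGT1-/- and -0.98 (SE 0.071, adjusted p = 1.91e-07, -1.44 from the all-gene median) in ALG6/UGGT2-/- cells. Between ALG6/UGGT1/UGGT2-/- and ALG6-/- cells MGAT4B differed by -0.06 (SE 0.071, adjusted p = 0.491), with a 95% interval of -0.21 to 0.10, and by -0.42 from the all-gene median. The call in ALG6/UGGT1-/- cells was lost after median ratio scaling (-0.32 (adjusted p = 0.184)) and without WT replicate 2 or ALG6/UGGT1-/- replicate 3 (adjusted p 0.0511 and 0.0749). MGAT5 adds the branch that carries most long lactosamine chains. MGAT5 (chr2:134119983-134454621, plus strand) was at 72.9, 79.1 and 45.9 CPM in the WT libraries and 82.8, 46.9 and 55.1 in ALG6-/- cells. MGAT5 had 71.3, 73.0 and 70.6 in ALG6/UGGT1-/-, 63.7, 69.8 and 66.7 in ALG6/UGGT2-/- and 105, 105 and 107 in ALG6/UGGT1/UGGT2-/- cells. The 3 ALG6/UGGT1/UGGT2-/- values were above all others, WT replicate 3 and ALG6-/- replicate 2 were the lowest libraries, and the WT and ALG6-/- ranges spanned those of ALG6/UGGT1-/- and ALG6/UGGT2-/- cells, which did not overlap each other. MGAT5 had a log2 fold change against WT of 0.71 (SE 0.20, adjusted p = 0.0147) in ALG6/UGGT1/UGGT2-/- cells. MGAT5 differed from ALG6-/- cells by 0.82 (SE 0.20, adjusted p = 0.00459, 0.46 from the all-gene median) in ALG6/UGGT1/UGGT2-/- cells. After the length and GC correction the difference from ALG6-/- cells was 0.07 (adjusted p = 0.584), and without WT replicate 3 the difference from WT was 0.47 (adjusted p = 0.0545). MGAT4A, the relative of MGAT4B, did not pass the F test (line means 11.5 to 23.8 CPM, ALG6-/- replicate 2 at 5.09 CPM). It was called higher than in ALG6-/- cells in ALG6/UGGT1-/- (1.14 (SE 0.40, adjusted p = 0.0208, 0.62 from the all-gene median)), ALG6/UGGT2-/- (1.01 (SE 0.40, adjusted p = 0.0387, 0.55 from the all-gene median)) and ALG6/UGGT1/UGGT2-/- cells (0.99 (SE 0.40, adjusted p = 0.0453, 0.63 from the all-gene median)), and after the length and GC correction these were -0.28 (adjusted p = 0.00767), -0.14 (adjusted p = 0.152) and -0.08 (adjusted p = 0.437), while median ratio scaling ended all 3 calls (adjusted p from 0.0609 to 0.103).

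**Figure D2:**
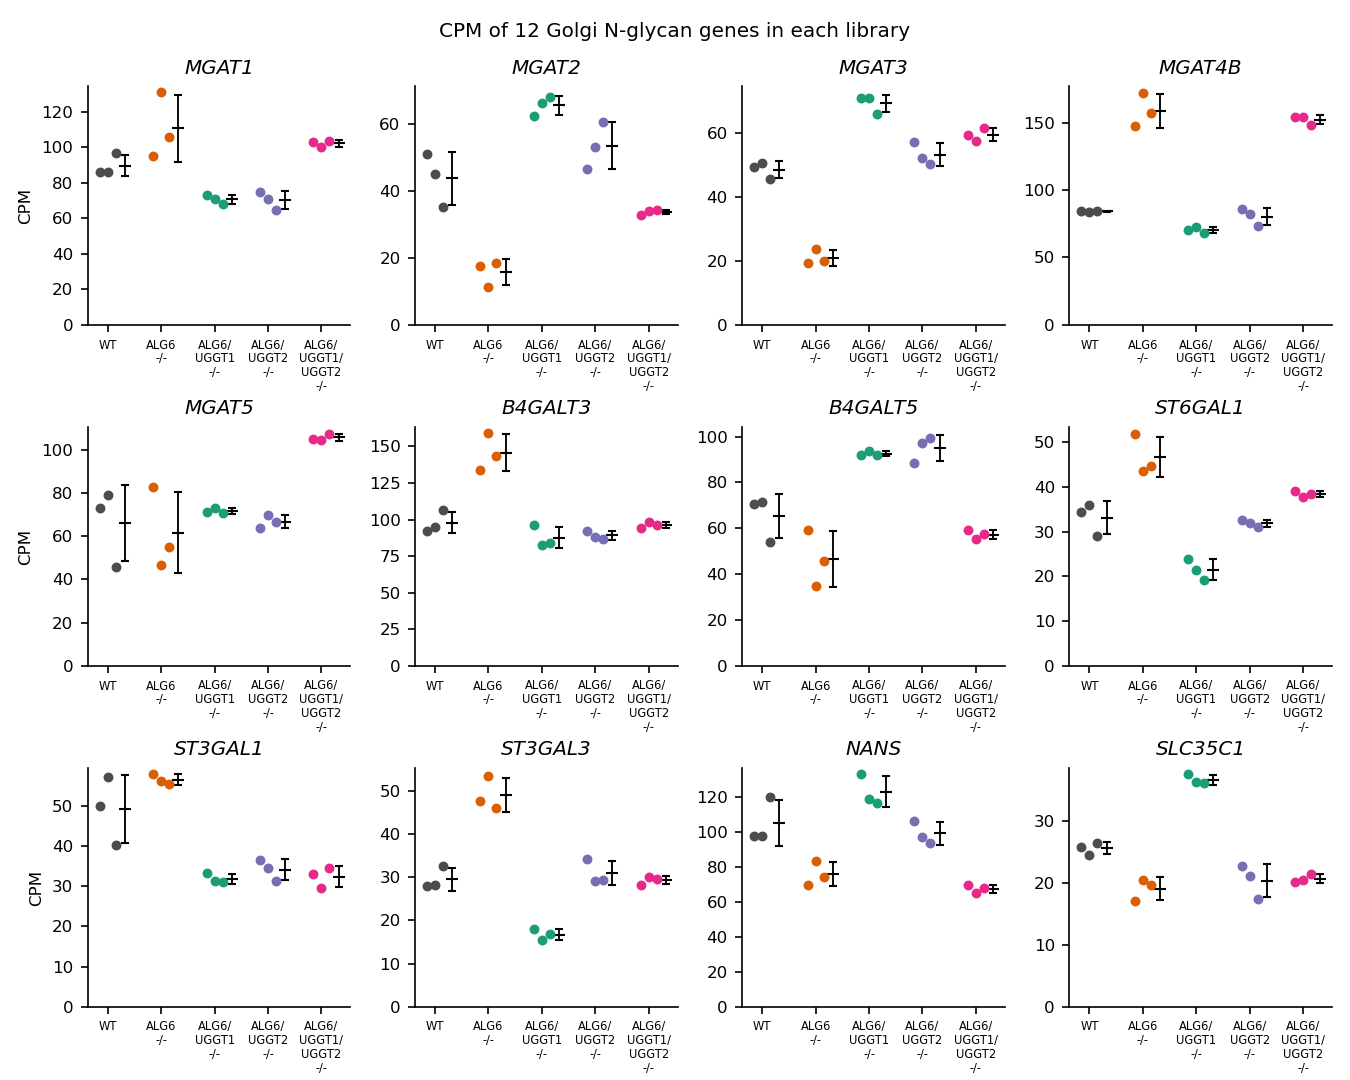
CPM of 12 genes in each of the 15 libraries (points, 3 biological replicates per line) with the mean and SD of each line (bars beside the points). The ALG6-/- values of MGAT2 and MGAT3 lie below all others, those of B4GALT3, ST6GAL1 and ST3GAL3 above all others, and MGAT4B is high in both ALG6-/- and ALG6/UGGT1/UGGT2-/- cells.

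Core fucosylation needs FUT8, the enzyme that adds fucose to the innermost N-acetylglucosamine, and SLC35C1, the GDP-fucose carrier of the Golgi, and on the CPM scale only the carrier was called in any comparison. FUT8 did not pass the F test (line means 8.31 to 11.2 CPM), and its widest spread was among the ALG6-/- libraries, from 3.98 to 13.2 CPM. FUT8 passed it after the length and GC correction (adjusted p = 0.00105) and was called higher in ALG6-/- than in WT cells, by 0.41 (adjusted p = 0.00494), and lower in ALG6/UGGT1-/- than in ALG6-/- cells, at -0.66 (adjusted p = 0.000112). SLC35C1 (chr11:45804072-45813016, plus strand) was at 25.8, 24.5 and 26.4 CPM in the WT libraries and 17.0, 20.5 and 19.7 in ALG6-/- cells. SLC35C1 had 37.5, 36.2 and 36.0 in ALG6/UGGT1-/-, 22.7, 21.0 and 17.4 in ALG6/UGGT2-/- and 20.1, 20.4 and 21.5 in ALG6/UGGT1/UGGT2-/- cells. The ALG6/UGGT1-/- values were above the other 12 libraries, and those of the other knockout lines were below WT in all 9 libraries. SLC35C1 had a log2 fold change against WT of 0.51 (SE 0.10, adjusted p = 0.00303) in ALG6/UGGT1-/-, -0.33 (SE 0.10, adjusted p = 0.0488) in ALG6/UGGT2-/- and -0.30 (SE 0.10, adjusted p = 0.0349) in ALG6/UGGT1/UGGT2-/- cells. SLC35C1 differed from ALG6-/- cells by 0.93 (SE 0.10, adjusted p = 5.13e-06, 0.41 from the all-gene median) in ALG6/UGGT1-/- cells. In ALG6-/- against WT cells the SLC35C1 value was -0.42 (SE 0.10, adjusted p = 0.00356, 0.02 from the all-gene median), beyond the 10 largest of that comparison, and it was -0.27 after the length and GC correction (adjusted p = 0.011). The SLC35C1 calls against WT were lost with median ratio scaling (0.00768 (adjusted p = 0.9751) in ALG6-/-, 0.44 (adjusted p = 0.112) in ALG6/UGGT1-/-, -0.35 (adjusted p = 0.315) in ALG6/UGGT2-/- and -0.26 (adjusted p = 0.318) in ALG6/UGGT1/UGGT2-/- cells). The call in ALG6/UGGT2-/- cells was also lost without any of 12 libraries, all but ALG6-/- replicates 1 and 2 and ALG6/UGGT2-/- replicate 1 (adjusted p up to 0.203), and that in ALG6/UGGT1/UGGT2-/- cells without any 1 of the 6 libraries of that line and WT (adjusted p up to 0.103).

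Among the 5 beta-galactosyltransferases, B4GALT3 was 1.48-fold higher in ALG6-/- than in WT cells, while B4GALT5 was higher in both ALG6/UGGT1-/- and ALG6/UGGT2-/- cells, by 1.42-fold and 1.46-fold. In ALG6-/- against WT cells 1 of 5 was higher and 1 lower (median log2 fold change -0.01, all genes -0.44), and in ALG6/UGGT1/UGGT2-/- cells none was called in either direction. Among all genes the shares higher and lower were 15.1% and 45.7% in ALG6-/- and 13.5% and 22.0% in ALG6/UGGT1/UGGT2-/- cells. In ALG6-/- against WT cells 3 of the 5 were higher after median ratio scaling (all genes 26.6%). The length and GC correction also gave 3 of 5 higher (all genes 32.6%). B4GALT3 is one of the enzymes that add galactose to N-glycan branches. B4GALT3 (chr1:161171310-161177968, minus strand) was at 92.4, 95.1 and 106 CPM in the WT libraries and 134, 159 and 144 in ALG6-/- cells. B4GALT3 had 96.2, 82.9 and 83.8 in ALG6/UGGT1-/-, 92.3, 88.4 and 86.8 in ALG6/UGGT2-/- and 94.0, 98.4 and 96.2 in ALG6/UGGT1/UGGT2-/- cells. The 3 ALG6-/- libraries were above the other 12, the highest of which was WT replicate 3. B4GALT3 had a log2 fold change against WT of 0.57 (SE 0.082, adjusted p = 8.28e-05, 1.01 from the all-gene median) in ALG6-/- cells. B4GALT3 differed from ALG6-/- cells by -0.70 (SE 0.082, adjusted p = 1.06e-05, -1.16 from the all-gene median) in ALG6/UGGT2-/- and -0.59 (SE 0.082, adjusted p = 7.95e-05, -0.95 from the all-gene median) in ALG6/UGGT1/UGGT2-/- cells. B4GALT5 is best known for making lactosylceramide, the core of many glycolipids. B4GALT5 (chr20:49632945-49713878, minus strand) was at 70.6, 71.4 and 54.1 CPM in the WT libraries and 59.2, 34.8 and 45.7 in ALG6-/- cells. B4GALT5 had 91.8, 93.9 and 92.0 in ALG6/UGGT1-/-, 88.7, 97.2 and 99.6 in ALG6/UGGT2-/- and 59.3, 55.3 and 57.3 in ALG6/UGGT1/UGGT2-/- cells. The ALG6/UGGT1-/- and ALG6/UGGT2-/- libraries overlapped each other and lay above the other 9, and ALG6-/- replicate 1 lay within the WT range. B4GALT5 had a log2 fold change against WT of -0.51 (SE 0.16, adjusted p = 0.0143, -0.07 from the all-gene median) in ALG6-/-, 0.51 (SE 0.16, adjusted p = 0.0314) in ALG6/UGGT1-/- and 0.55 (SE 0.16, adjusted p = 0.0355) in ALG6/UGGT2-/- cells. B4GALT5 differed from ALG6-/- cells by 1.02 (SE 0.16, adjusted p = 9.23e-05, 0.50 from the all-gene median) in ALG6/UGGT1-/- and 1.05 (SE 0.16, adjusted p = 7.91e-05, 0.60 from the all-gene median) in ALG6/UGGT2-/- cells. Both calls held in every alternative, but the values ran from 0.40 to 1.21 and from 0.45 to 1.24. The B4GALT5 value in ALG6-/- against WT cells turned to 0.02 (adjusted p = 0.818) after the length and GC correction, was -0.07 (adjusted p = 0.577) after median ratio scaling, and lost its call without WT replicate 1 or 2 or ALG6-/- replicate 2 (adjusted p up to 0.0582). In ALG6/UGGT2-/- against WT cells the B4GALT5 call was lost without any of 11 libraries, all but ALG6-/- replicates 1 and 2 and ALG6/UGGT1-/- replicates 1 and 2 (adjusted p up to 0.12), and in ALG6/UGGT1-/- cells without WT replicate 3 or any 1 library of that line (adjusted p up to 0.119).

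B4GALT1, the main galactosyltransferase of N-glycans in many cells, and B4GALT2 differed less between lines. B4GALT1 line means ranged from 58.3 to 78.5 CPM, with a log2 fold change against WT of 0.30 (SE 0.093, adjusted p = 0.0334) in ALG6/UGGT1-/- and 0.41 (SE 0.093, adjusted p = 0.0104) in ALG6/UGGT2-/- cells. Line means of B4GALT2 ran from 102 to 139 CPM, with -0.29 (SE 0.094, adjusted p = 0.0404) and -0.32 (SE 0.094, adjusted p = 0.0409) in the same comparisons, the opposite direction. Median ratio scaling ended these 4 calls (adjusted p from 0.091 to 0.368). Neither gene was called in ALG6-/- against WT cells on the CPM scale, but both were called higher there on the other scales. Median ratio scaling gave B4GALT1 0.42 (adjusted p = 0.0143) and B4GALT2 0.56 (adjusted p = 0.0243). The length and GC correction gave 0.38 (adjusted p = 0.00122) and 0.17 (adjusted p = 0.0106). B4GALT4 did not pass the F test (line means 19.4 to 29.8 CPM), but was called higher than in ALG6-/- cells in ALG6/UGGT1-/- (0.71 (SE 0.26, adjusted p = 0.0252, 0.19 from the all-gene median)) and ALG6/UGGT2-/- cells (0.67 (SE 0.26, adjusted p = 0.0354, 0.21 from the all-gene median)), and neither call held after the length and GC correction (0.08 (adjusted p = 0.588) and 0.11 (adjusted p = 0.459)) or median ratio scaling (adjusted p = 0.301 and 0.297).

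Among the sialyltransferases, ST6GAL1 and ST3GAL3 were higher in ALG6-/- than in WT cells, and ST6GAL1, ST3GAL1 and ST3GAL3 were lower in ALG6/UGGT1-/- than in WT cells. Of the 6, 2 were higher and 0 lower in ALG6-/- against WT (median log2 fold change 0.12, all genes -0.44), 0 and 3 in ALG6/UGGT1-/- (median -0.42, all genes 0.07), 0 and 1 in ALG6/UGGT2-/- (median -0.17, all genes 0.03) and 1 and 2 in ALG6/UGGT1/UGGT2-/- cells (median 0.02, all genes -0.03). The all-gene shares higher and lower were 15.1% and 45.7% in ALG6-/- and 10.3% and 13.8% in ALG6/UGGT1-/- cells. They were 6.14% and 7.75% in ALG6/UGGT2-/- and 13.5% and 22.0% in ALG6/UGGT1/UGGT2-/- cells. ST6GAL1 caps N-glycan galactose with sialic acid and is the main enzyme for that linkage on N-glycans. ST6GAL1 (chr3:186930325-187078553, plus strand) was at 34.5, 35.9 and 29.0 CPM in the WT libraries and 51.7, 43.4 and 44.8 in ALG6-/- cells. ST6GAL1 had 24.0, 21.4 and 19.2 in ALG6/UGGT1-/-, 32.6, 31.98 and 31.0 in ALG6/UGGT2-/- and 39.1, 37.7 and 38.3 in ALG6/UGGT1/UGGT2-/- cells. The ALG6-/- libraries were the 3 highest and the ALG6/UGGT1-/- libraries the 3 lowest, and the other 3 lines lay between them. ST6GAL1 had a log2 fold change against WT of -0.61 (SE 0.10, adjusted p = 0.00101) in ALG6/UGGT1-/- cells. In ALG6-/- against WT cells the ST6GAL1 value, beyond the 10 largest there, was 0.49 (SE 0.10, adjusted p = 0.00146, 0.93 from the all-gene median). ST6GAL1 differed from ALG6-/- cells by -1.10 (SE 0.10, adjusted p = 1.33e-06, -1.62 from the all-gene median) in ALG6/UGGT1-/- cells. ST3GAL3 joins sialic acid to galactose in another linkage, on N-glycans and glycolipids. ST3GAL3 (chr1:43705824-43931165, plus strand) was at 27.9, 28.1 and 32.5 CPM in the WT libraries and 47.6, 53.3 and 45.9 in ALG6-/- cells. ST3GAL3 had 17.9, 15.4 and 16.8 in ALG6/UGGT1-/-, 34.1, 29.2 and 29.3 in ALG6/UGGT2-/- and 28.3, 30.0 and 29.5 in ALG6/UGGT1/UGGT2-/- cells. All 3 ALG6-/- values were above, and all 3 ALG6/UGGT1-/- values below, those of every other library, while WT, ALG6/UGGT2-/- and ALG6/UGGT1/UGGT2-/- overlapped. ST3GAL3 had a log2 fold change against WT of 0.72 (SE 0.097, adjusted p = 4.94e-05, 1.16 from the all-gene median) in ALG6-/- and -0.80 (SE 0.097, adjusted p = 9.37e-05) in ALG6/UGGT1-/- cells. ST3GAL3 differed from ALG6-/- cells by -1.52 (SE 0.097, adjusted p = 4.91e-08, -2.04 from the all-gene median) in ALG6/UGGT1-/- and -0.73 (SE 0.097, adjusted p = 5.97e-05, -1.09 from the all-gene median) in ALG6/UGGT1/UGGT2-/- cells. A further ST3GAL3 call, in ALG6/UGGT2-/- against ALG6-/- cells, was -0.66 (SE 0.097, adjusted p = 7.80e-05, -1.11 from the all-gene median), with -0.68 (adjusted p = 1.68e-06) after the length and GC correction. The ST6GAL1 calls in ALG6/UGGT1-/- cells and the ST3GAL3 calls given with it in ALG6-/-, ALG6/UGGT1-/- and ALG6/UGGT1/UGGT2-/- cells held in every alternative.

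ST3GAL1 acts mainly on the O-glycans of glycoproteins. ST3GAL1 was at 49.9, 57.2 and 40.3 CPM in the WT libraries and 57.9, 56.1 and 55.3 in ALG6-/- cells. ST3GAL1 had 33.3, 31.4 and 30.9 in ALG6/UGGT1-/-, 36.6, 34.5 and 31.2 in ALG6/UGGT2-/- and 33.1, 29.4 and 34.5 in ALG6/UGGT1/UGGT2-/- cells. The 3 lines that lacked a UGGT as well as ALG6 overlapped each other and lay below every WT and ALG6-/- library. ST3GAL1 had a log2 fold change against WT of -0.60 (SE 0.11, adjusted p = 0.00213) in ALG6/UGGT1-/-, -0.51 (SE 0.11, adjusted p = 0.0104) in ALG6/UGGT2-/- and -0.58 (SE 0.11, adjusted p = 0.00141) in ALG6/UGGT1/UGGT2-/- cells. ST3GAL1 differed from ALG6-/- cells by -0.72 (SE 0.11, adjusted p = 0.000133, -1.18 from the all-gene median) in ALG6/UGGT2-/- and -0.80 (SE 0.11, adjusted p = 0.000104, -1.16 from the all-gene median) in ALG6/UGGT1/UGGT2-/- cells. In ALG6-/- against WT cells it was at 0.21 (SE 0.11, adjusted p = 0.12), not called, and 0.65 from the all-gene median, and after the length and GC correction 0.68 (adjusted p = 0.000692). ST3GAL2, which prefers the same kind of acceptor, had line means from 27.5 to 41.1 CPM and among the WT comparisons was called in 1, ALG6/UGGT1/UGGT2-/- against WT cells, higher by 0.43 (SE 0.11, adjusted p = 0.00764). ST3GAL4, an N-glycan sialyltransferase, had line means from 20.8 to 29.7 CPM, and in ALG6/UGGT1/UGGT2-/- cells it was called lower than in WT, at -0.50 (SE 0.10, adjusted p = 0.00222). Neither call held after median ratio scaling (adjusted p = 0.0858 and 0.0818), and without ALG6/UGGT2-/- replicate 3 the ST3GAL1 call in that line was lost (-0.45 (adjusted p = 0.0527)). ST3GAL6 did not pass the F test (line means 7.39 to 8.84 CPM), but did after the length and GC correction (adjusted p = 9.00e-06), where it was at 0.65 (adjusted p = 0.00012) in ALG6-/- against WT and at -0.92 (adjusted p = 3.32e-06), -0.96 (adjusted p = 2.49e-06) and -0.55 (adjusted p = 0.00053) against ALG6-/- cells in the 3 multiple knockout lines, in the order used above.

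The carriers were low in ALG6-/- cells on the CPM scale, where 3 of 4 were lower than in WT and 0 higher (median log2 fold change -0.62, all genes -0.44). In that comparison 15.1% of all genes were called higher and 45.7% lower. Against ALG6-/- cells all 4 carriers were higher in ALG6/UGGT1-/- cells (median 0.91, all genes 0.52), where 53.1% of all genes were called higher. After the length and GC correction 2 were lower and 1 higher in ALG6-/- than in WT cells and 2 of 4 higher in ALG6/UGGT1-/- than in ALG6-/- cells, and after median ratio scaling 1 was lower and 3 higher in these comparisons. SLC35A1 brings CMP-sialic acid into the Golgi. SLC35A1 (chr6:87470623-87512336, plus strand) was at 16.9, 14.4 and 12.0 CPM in the WT libraries and 9.13, 6.70 and 9.60 in ALG6-/- cells. SLC35A1 had 15.9, 15.9 and 16.3 in ALG6/UGGT1-/-, 15.2, 18.5 and 21.1 in ALG6/UGGT2-/- and 13.6, 12.9 and 14.2 in ALG6/UGGT1/UGGT2-/- cells. The 3 ALG6-/- values were the lowest of the 15, and WT replicate 3 was the next lowest. SLC35A1 had a log2 fold change against WT of -0.74 (SE 0.16, adjusted p = 0.00161, -0.30 from the all-gene median) in ALG6-/- cells. SLC35A1 differed from ALG6-/- cells by 1.07 (SE 0.16, adjusted p = 7.55e-05, 0.61 from the all-gene median) in ALG6/UGGT2-/- and 0.66 (SE 0.16, adjusted p = 0.0036, 0.30 from the all-gene median) in ALG6/UGGT1/UGGT2-/- cells. The call in ALG6/UGGT2-/- cells held in every alternative, but the value ran from 0.32 to 1.19. After the length and GC correction SLC35A1 was at -0.07 (adjusted p = 0.489) in ALG6-/- against WT and 0.16 (adjusted p = 0.103) in ALG6/UGGT1/UGGT2-/- against ALG6-/- cells, and the latter call was lost with median ratio scaling too (0.29 (adjusted p = 0.0672)). SLC35A2 is the UDP-galactose carrier. SLC35A2 (chrX:48903180-48911958, minus strand) was at 41.5, 41.0 and 42.8 CPM in the WT libraries and 28.4, 28.2 and 30.9 in ALG6-/- cells. SLC35A2 had 48.9, 44.5 and 45.0 in ALG6/UGGT1-/-, 44.01, 40.6 and 41.1 in ALG6/UGGT2-/- and 33.6, 33.3 and 34.9 in ALG6/UGGT1/UGGT2-/- cells. The ALG6-/- values were the lowest, those of ALG6/UGGT1/UGGT2-/- cells next, and those of ALG6/UGGT1-/- cells the highest, none of these 3 ranges overlapping another line's. SLC35A2 had a log2 fold change against WT of -0.51 (SE 0.068, adjusted p = 4.64e-05, -0.07 from the all-gene median) in ALG6-/- and -0.30 (SE 0.068, adjusted p = 0.00437) in ALG6/UGGT1/UGGT2-/- cells. Median ratio scaling ended both calls, with -0.08 (adjusted p = 0.657) in ALG6-/- and -0.25 (adjusted p = 0.221) in ALG6/UGGT1/UGGT2-/- cells. The length and GC correction kept the ALG6-/- call (-0.52 (adjusted p = 0.000296)) but not that in ALG6/UGGT1/UGGT2-/- cells (-0.08 (adjusted p = 0.519)).

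SLC35A3, a carrier linked to UDP-N-acetylglucosamine, the donor for the MGAT enzymes, was called against ALG6-/- cells in 1 line. SLC35A3 (chr1:99969351-100035634, plus strand) was at 16.8, 12.3 and 7.45 CPM in the WT libraries and 9.36, 4.55 and 6.77 in ALG6-/- cells. SLC35A3 had 14.4, 23.0 and 23.8 in ALG6/UGGT1-/-, 8.38, 12.6 and 12.8 in ALG6/UGGT2-/- and 7.99, 10.2 and 9.04 in ALG6/UGGT1/UGGT2-/- cells. WT replicate 3 fell within the ALG6-/- range, ALG6/UGGT1-/- replicates 2 and 3 were above all other libraries, and the ALG6-/-, ALG6/UGGT2-/- and ALG6/UGGT1/UGGT2-/- ranges overlapped. SLC35A3 differed from ALG6-/- cells by 1.52 (SE 0.31, adjusted p = 0.000874, 1.00 from the all-gene median) in ALG6/UGGT1-/- cells. After the length and GC correction the difference turned to -0.04 (adjusted p = 0.747). SLC35A1 was also called in ALG6/UGGT1-/- against ALG6-/- cells, at 0.90 (SE 0.16, adjusted p = 0.000259, 0.38 from the all-gene median), and the correction took it to -0.04 (adjusted p = 0.66). SLC35C1, the remaining carrier, is described with core fucosylation.

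Of the 4 enzymes that make CMP-sialic acid, 3 were lower in ALG6-/- than in WT cells (GNE, CMAS and NANS) and 0 higher (median log2 fold change of the 4 -0.50, all genes -0.44). In ALG6/UGGT1/UGGT2-/- cells NANS alone was called against WT, and in ALG6/UGGT1-/- and ALG6/UGGT2-/- cells none of the 4 was called (limma, 1 and 0 at an unadjusted p under 0.05). Against WT, the all-gene shares higher and lower were 15.1% and 45.7% in ALG6-/- and 10.3% and 13.8% in ALG6/UGGT1-/- cells. They were 6.14% and 7.75% in ALG6/UGGT2-/- and 13.5% and 22.0% in ALG6/UGGT1/UGGT2-/- cells. GNE is the enzyme that starts sialic acid synthesis and sets its rate. GNE (chr9:36214441-36277042, minus strand) was at 36.8, 35.0 and 29.7 CPM in the WT libraries and 27.2, 12.7 and 16.1 in ALG6-/- cells. GNE had 30.8, 40.8 and 38.3 in ALG6/UGGT1-/-, 39.7, 39.3 and 41.8 in ALG6/UGGT2-/- and 26.9, 22.8 and 24.4 in ALG6/UGGT1/UGGT2-/- cells. The ALG6-/- libraries and the ALG6/UGGT1/UGGT2-/- libraries, which fell within the ALG6-/- range, were below the other 9. GNE had a log2 fold change against WT of -0.91 (SE 0.21, adjusted p = 0.00291, -0.47 from the all-gene median) in ALG6-/- cells. GNE differed from ALG6-/- cells by 1.01 (SE 0.21, adjusted p = 0.000973, 0.50 from the all-gene median) in ALG6/UGGT1-/- and 1.16 (SE 0.21, adjusted p = 0.000424, 0.70 from the all-gene median) in ALG6/UGGT2-/- cells. The length and GC correction ended the GNE calls in ALG6-/- against WT (-0.24 (adjusted p = 0.0601)) and in ALG6/UGGT1-/- against ALG6-/- cells (0.17 (adjusted p = 0.165)). That in ALG6/UGGT2-/- against ALG6-/- cells held in every alternative, but the value ran from 0.40 to 1.46. NANS condenses the precursor into sialic acid phosphate. NANS (chr9:98056732-98083077, plus strand) was at 97.8, 97.5 and 120.3 CPM in the WT libraries and 69.8, 83.7 and 74.2 in ALG6-/- cells. NANS had 133, 119 and 117 in ALG6/UGGT1-/-, 106, 97.0 and 94.0 in ALG6/UGGT2-/- and 69.4, 65.0 and 68.3 in ALG6/UGGT1/UGGT2-/- cells. The ALG6/UGGT1/UGGT2-/- libraries were the 3 lowest, those of ALG6-/- cells next, and both lines lay below the other 9 libraries. NANS had a log2 fold change against WT of -0.63 (SE 0.097, adjusted p = 0.000261) in ALG6/UGGT1/UGGT2-/- cells. In ALG6-/- against WT cells NANS was at -0.47 (SE 0.097, adjusted p = 0.00134, -0.03 from the all-gene median), and after the length and GC correction at -0.42 (adjusted p = 7.85e-06), while median ratio scaling gave -0.03 (adjusted p = 0.901).

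CMAS activates sialic acid to CMP-sialic acid in the nucleus. CMAS (chr12:22046218-22065674, plus strand) was at 49.3, 46.8 and 37.9 CPM in the WT libraries and 41.8, 21.1 and 32.3 in ALG6-/- cells. CMAS had 47.7, 46.5 and 52.3 in ALG6/UGGT1-/-, 43.1, 50.5 and 58.3 in ALG6/UGGT2-/- and 50.9, 47.0 and 47.4 in ALG6/UGGT1/UGGT2-/- cells. WT replicate 3 lay within the ALG6-/- range, and ALG6-/- replicate 2 was the lowest library. CMAS had a log2 fold change against WT of -0.53 (SE 0.20, adjusted p = 0.0346, -0.09 from the all-gene median) in ALG6-/- cells. CMAS differed from ALG6-/- cells by 0.71 (SE 0.20, adjusted p = 0.00718, 0.25 from the all-gene median) in ALG6/UGGT2-/- and 0.66 (SE 0.20, adjusted p = 0.0132, 0.30 from the all-gene median) in ALG6/UGGT1/UGGT2-/- cells. The ALG6-/- against WT call was lost after the length and GC correction (-0.01 (adjusted p = 0.904)), after median ratio scaling (-0.10 (adjusted p = 0.544)) and without WT replicate 1 or 2 or ALG6-/- replicate 2 or 3 (adjusted p up to 0.146). Median ratio scaling also ended the CMAS calls against ALG6-/- cells (0.26 (adjusted p = 0.112) in ALG6/UGGT2-/- and 0.27 (adjusted p = 0.103) in ALG6/UGGT1/UGGT2-/- cells). NANP, which removes the phosphate, did not pass the F test (line means 10.1 to 14.9 CPM, with ALG6-/- replicates from 3.77 to 17.5 CPM), and after the length and GC correction it did (adjusted p = 0.0462), with -0.59 (adjusted p = 0.0204) in ALG6/UGGT1-/- against ALG6-/- cells.

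The comparison of ALG6-/- with WT cells changed with how the libraries were put on 1 scale. On CPM as deposited the median over the 32 genes was -0.31 and over all genes -0.44, and after the length and GC correction these were 0.32 and 0.03. MGAT2 and MGAT3 were lower and MGAT1, MGAT4B, B4GALT3, ST6GAL1 and ST3GAL3 higher, with a call, on the CPM scale, after median ratio scaling and after the length and GC correction. GNE and SLC35A1 were called lower on the CPM scale and after median ratio scaling but not after the correction, NANS, SLC35A2 and SLC35C1 on the CPM scale and after the correction but not after median ratio scaling, and B4GALT5, CMAS and MAN2A2 on the CPM scale alone. B4GALT1 and B4GALT2 were among the genes called higher after median ratio scaling and after the correction but not on the CPM scale.

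**Figure D3:**
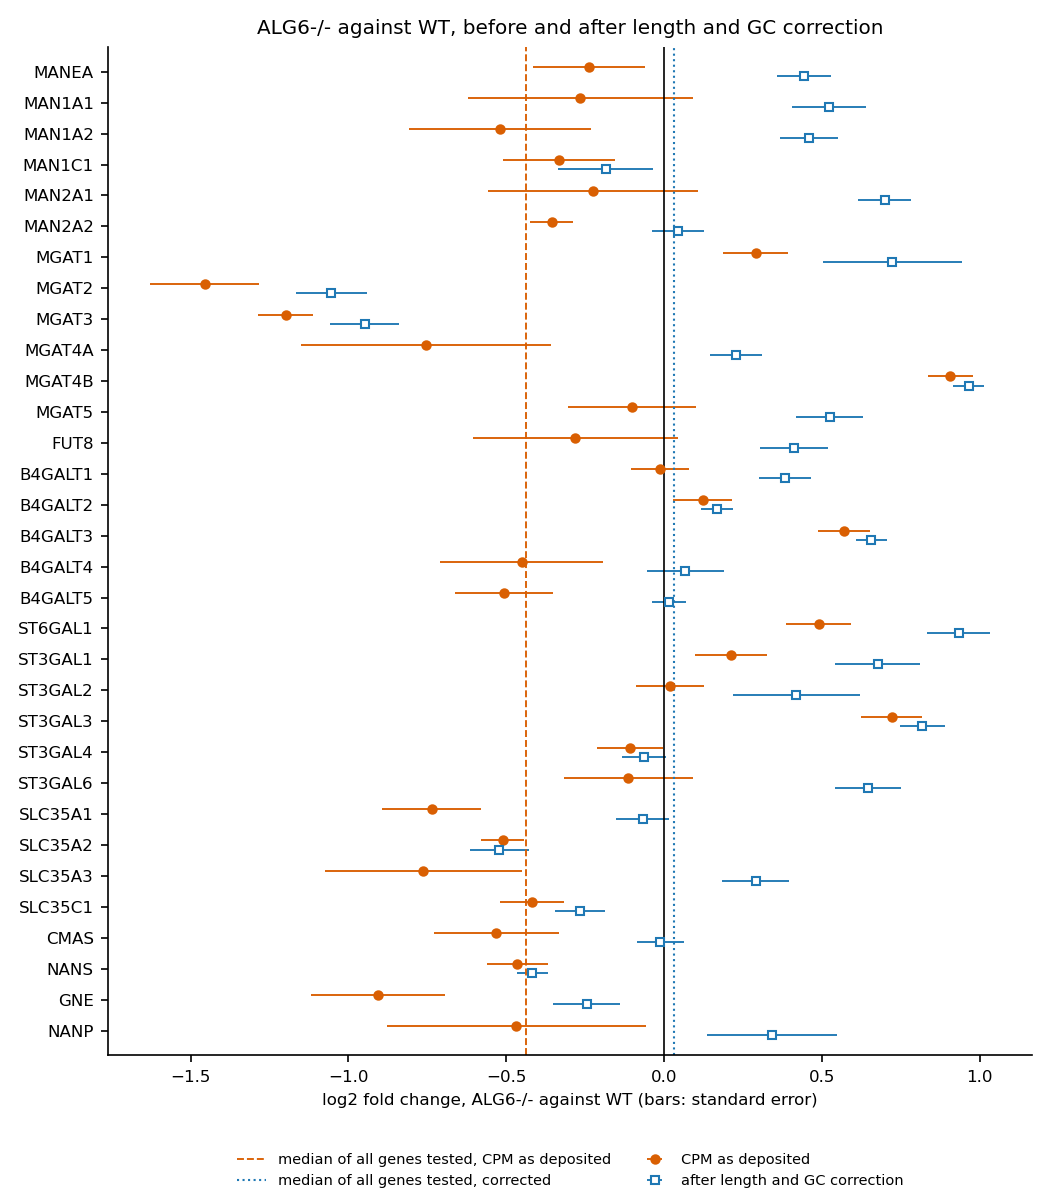
log2 fold change of the 32 genes in ALG6-/- against WT cells (points, with standard errors as bars) on CPM as deposited and after the length and GC correction, with the medians of all genes tested as vertical lines at -0.44 and 0.03. MGAT2 and MGAT3 stay left of 0 and MGAT4B, ST3GAL3, ST6GAL1 and B4GALT3 right of 0 on both scales, while MANEA, MAN1A1, MAN1A2 and MAN2A1 cross 0.

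The design also allows the loss of UGGT2 to be compared in cells with UGGT1 (ALG6/UGGT2-/- against ALG6-/-) and without it (ALG6/UGGT1/UGGT2-/- against ALG6/UGGT1-/-). This comparison was added after the values had been seen, and it rests on the ALG6-/- libraries, whose shift puts the median of all genes at -0.60 on the log2 scale. The difference between the effects was called for 20 of the 32 genes, 8 higher without UGGT1 and 12 lower, beside 20.3% and 46.6% of all genes tested. Each line is 1 clone, so genotype and clone cannot be told apart in these effects, and those without UGGT1 were not tested alone. MGAT4B had an effect of -0.98 with UGGT1 and of 1.11 without it. For MGAT2 the effects were 1.75 and -0.95, for ST6GAL1 -0.54 and 0.83, and for ST3GAL3 -0.66 and 0.79. Of the 20 genes, 13 kept the sign and the call both after median ratio scaling and after the length and GC correction.

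**Figure D4:**
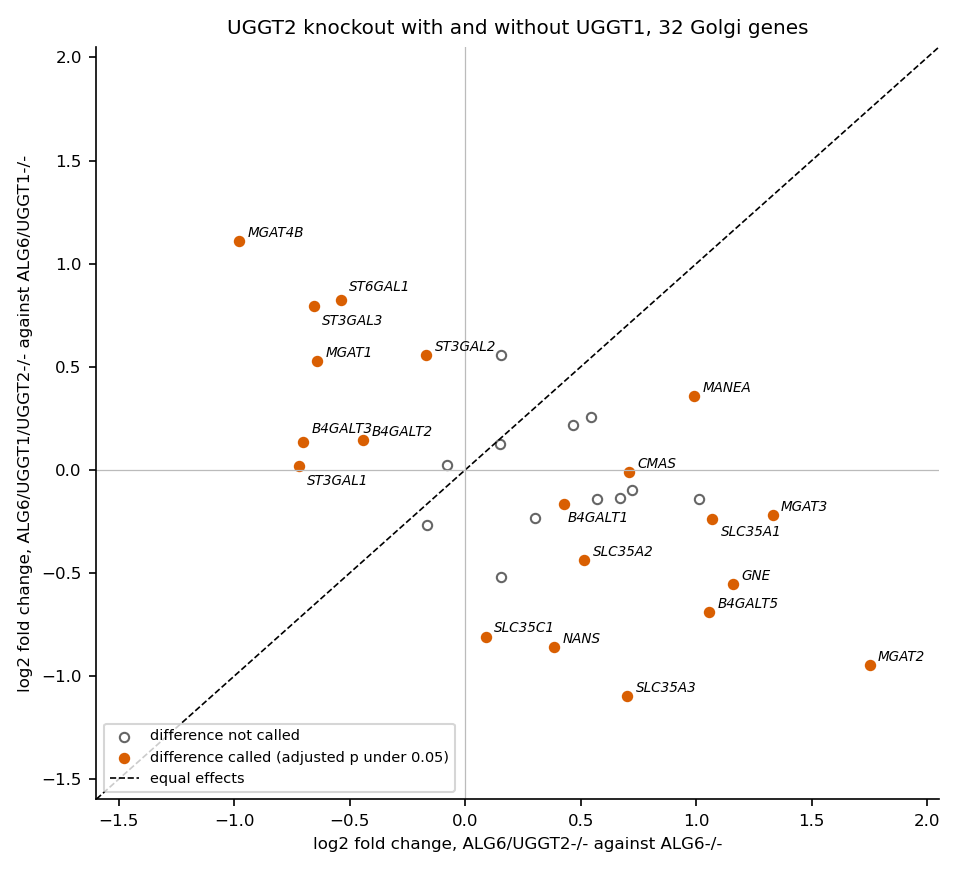
log2 fold change of the 32 genes on loss of UGGT2 in cells with UGGT1 (horizontal axis) and without UGGT1 (vertical axis), on CPM as deposited. Filled points are the 20 genes whose effects differ at an adjusted p under 0.05, the dashed line marks equal effects, and MGAT4B, ST6GAL1, ST3GAL3 and MGAT1 lie opposite MGAT2, MGAT3, GNE and B4GALT5.

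Other enzymes of late glycan processing and breakdown, from a list of 26 of which 21 were tested, were compared in the same way. Against WT, 3 were higher and 10 lower in ALG6-/-, 4 and 3 in ALG6/UGGT1-/-, 4 and 2 in ALG6/UGGT2-/- and 5 and 1 in ALG6/UGGT1/UGGT2-/- cells, with medians of -0.53, 0.11, 0.10 and 0.20 (all genes -0.44, 0.07, 0.03 and -0.03). Of all genes tested, 15.1% and 45.7% were called higher and lower in ALG6-/- cells. There the list had 5 higher and 6 lower after the length and GC correction (all genes 32.6% and 29.0%). After median ratio scaling it had 7 and 1 (all genes 26.6% and 25.6%). On the CPM scale 19% of the list was higher and 14.3% lower in ALG6/UGGT1-/- cells, beside 10.3% and 13.8% of all genes. In ALG6/UGGT2-/- cells it was 19% and 9.52%, beside 6.14% and 7.75%. ALG6/UGGT1/UGGT2-/- cells had 23.8% and 4.76%, beside 13.5% and 22.0%. The largest called changes in ALG6-/- cells were NEU1 1.17 (SE 0.10, adjusted p = 1.48e-06, 1.61 from the all-gene median), NGLY1 -1.09 (SE 0.19, adjusted p = 0.000406, -0.66 from the all-gene median) and ST8SIA2 0.87 (SE 0.12, adjusted p = 8.43e-05, 1.31 from the all-gene median). NEU1 is the lysosomal sialidase, NGLY1 the cytosolic glycanase that strips glycans from degraded proteins, and ST8SIA2 a polysialyltransferase. In ALG6/UGGT1-/- cells they were AGA 0.98 (SE 0.18, adjusted p = 0.00154), a lysosomal glycosylasparaginase, B3GNT2 0.75 (SE 0.24, adjusted p = 0.0385), which extends lactosamine chains, and CHST10 -0.71 (SE 0.11, adjusted p = 0.000418), a sulfotransferase. ALG6/UGGT2-/- cells had AGA 0.87 (SE 0.18, adjusted p = 0.00578), ST8SIA2 0.66 (SE 0.12, adjusted p = 0.00362) and MGAT5B 0.40 (SE 0.099, adjusted p = 0.0192), and ALG6/UGGT1/UGGT2-/- cells MGAT5B 1.15 (SE 0.099, adjusted p = 3.00e-06), ST8SIA2 1.05 (SE 0.12, adjusted p = 3.52e-05) and NEU1 0.63 (SE 0.10, adjusted p = 0.000402). MGAT5B is the relative of MGAT5 that acts mainly on O-mannosyl glycans in brain. Against ALG6-/- cells the largest were AGA 1.70 (SE 0.18, adjusted p = 3.17e-06, 1.18 from the all-gene median), B3GNT2 1.56 (SE 0.24, adjusted p = 9.30e-05, 1.05 from the all-gene median) and ST3GAL5 -1.33 (SE 0.18, adjusted p = 3.71e-05, -1.85 from the all-gene median) in ALG6/UGGT1-/- cells, ST3GAL5 being the ganglioside synthase. They were AGA 1.59 (SE 0.18, adjusted p = 6.85e-06, 1.13 from the all-gene median), B3GNT2 1.35 (SE 0.24, adjusted p = 0.000338, 0.90 from the all-gene median) and B4GALT6 1.18 (SE 0.43, adjusted p = 0.0288, 0.72 from the all-gene median) in ALG6/UGGT2-/- cells. ALG6/UGGT1/UGGT2-/- cells had MGAT5B 1.74 (SE 0.099, adjusted p = 8.23e-08, 1.38 from the all-gene median), B4GALT6 1.54 (SE 0.43, adjusted p = 0.00889, 1.18 from the all-gene median) and AGA 1.07 (SE 0.18, adjusted p = 0.000302, 0.71 from the all-gene median) against ALG6-/- cells, B4GALT6 being a lactosylceramide synthase. With length and GC content corrected, the values that moved by over 1.5 times or lost their call were NGLY1 -0.42 in ALG6-/- against WT, AGA 0.78, B3GNT2 0.64 and ST3GAL5 -2.15 in ALG6/UGGT1-/- against ALG6-/-, AGA 0.85, B3GNT2 0.58 and B4GALT6 0.18 (adjusted p = 0.579, no call) in ALG6/UGGT2-/- against ALG6-/-, and B4GALT6 0.84 and AGA 0.53 in ALG6/UGGT1/UGGT2-/- against ALG6-/- cells. Median ratio scaling ended the calls of MGAT5B 0.37 (adjusted p = 0.133) in ALG6/UGGT2-/- against WT, and B4GALT6 0.75 (adjusted p = 0.0595) in ALG6/UGGT2-/- against ALG6-/- cells.

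Another list held enzymes of sugar nucleotide metabolism, among them those for UDP-N-acetylglucosamine, UDP-galactose, GDP-mannose and GDP-fucose. Not all of them feed the transferases above, and of 28 listed names 26 were tested. Against WT, 4 were higher and 12 lower in ALG6-/-, 3 and 4 in ALG6/UGGT1-/-, 1 and 1 in ALG6/UGGT2-/- and 5 and 6 in ALG6/UGGT1/UGGT2-/- cells, with medians of -0.35, 0.11, 0.03 and 0.07. Of all genes tested, 15.1% and 45.7% were called higher and lower in ALG6-/- cells. There the list had 9 higher and 7 lower after the length and GC correction (all genes 32.6% and 29.0%). After median ratio scaling it had 8 and 4 (all genes 26.6% and 25.6%). On the CPM scale 11.5% of the list was higher and 15.4% lower in ALG6/UGGT1-/- cells, beside 10.3% and 13.8% of all genes. In ALG6/UGGT2-/- cells it was 3.85% and 3.85%, beside 6.14% and 7.75%. ALG6/UGGT1/UGGT2-/- cells had 19.2% and 23.1%, beside 13.5% and 22.0%. In ALG6-/- cells the largest were NAGK -1.21 (SE 0.11, adjusted p = 1.69e-06, -0.77 from the all-gene median), GFPT1 -1.20 (SE 0.36, adjusted p = 0.0124, -0.76 from the all-gene median) and GNPNAT1 -1.13 (SE 0.25, adjusted p = 0.00222, -0.69 from the all-gene median), which salvage N-acetylglucosamine, open the hexosamine pathway and acetylate its intermediate. ALG6/UGGT1-/- cells had GFPT1 1.22 (SE 0.36, adjusted p = 0.0265), FUK -0.81 (SE 0.12, adjusted p = 0.000316), the fucose kinase, and GALK1 -0.58 (SE 0.12, adjusted p = 0.00491), the galactokinase. The 2 called genes in ALG6/UGGT2-/- cells were UAP1L1 -0.57 (SE 0.077, adjusted p = 0.000431) and GMDS 0.51 (SE 0.11, adjusted p = 0.00772), the latter making the precursor of GDP-fucose. In ALG6/UGGT1/UGGT2-/- cells the largest were PMM2 -0.94 (SE 0.099, adjusted p = 1.41e-05) and MPI -0.84 (SE 0.099, adjusted p = 3.08e-05), enzymes of mannose phosphate metabolism, and AMDHD2 0.81 (SE 0.14, adjusted p = 0.000467), a deacetylase of N-acetylglucosamine phosphate. Against ALG6-/- cells, GFPT1 was at 2.43 (SE 0.36, adjusted p = 7.11e-05, 1.91 from the all-gene median), 1.61 (SE 0.36, adjusted p = 0.00176, 1.16 from the all-gene median) and 1.36 (SE 0.36, adjusted p = 0.00662, 1.00 from the all-gene median) in the 3 lines that lacked a UGGT, in the order used above. The next largest were GNPNAT1 1.66 (SE 0.25, adjusted p = 8.62e-05, 1.15 from the all-gene median) and NAGK 1.45 (SE 0.11, adjusted p = 1.74e-07, 0.93 from the all-gene median) in ALG6/UGGT1-/-, NAGK 1.37 (SE 0.11, adjusted p = 3.63e-07, 0.91 from the all-gene median) and GNPNAT1 1.21 (SE 0.25, adjusted p = 0.00111, 0.75 from the all-gene median) in ALG6/UGGT2-/-, and PGM3 1.34 (SE 0.30, adjusted p = 0.00223, 0.98 from the all-gene median) and UGDH 1.23 (SE 0.37, adjusted p = 0.0131, 0.87 from the all-gene median) in ALG6/UGGT1/UGGT2-/- cells. With length and GC content corrected, the values that moved by over 1.5 times or lost their call were GFPT1 -0.21 and GNPNAT1 -0.32 in ALG6-/- against WT, GFPT1 0.77 in ALG6/UGGT1-/- against WT, GFPT1 0.98 and GNPNAT1 0.54 in ALG6/UGGT1-/- against ALG6-/-, GFPT1 0.45 and GNPNAT1 0.27 in ALG6/UGGT2-/- against ALG6-/-, and GFPT1 0.29, PGM3 0.37 and UGDH 0.54 in ALG6/UGGT1/UGGT2-/- against ALG6-/- cells. Median ratio scaling ended the calls of GALK1 -0.65 (adjusted p = 0.0566) in ALG6/UGGT1-/- against WT, and GMDS 0.48 (adjusted p = 0.184) in ALG6/UGGT2-/- against WT cells.

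Transferases are held in their Golgi cisternae by the COG tethering complex and GOLPH3 and need a controlled pH and manganese supply, and of the 20 genes listed for this, with further SLC35 carriers, all 20 were tested. Against WT, 2 were higher and 13 lower in ALG6-/-, 1 and 2 in ALG6/UGGT1-/-, 0 and 1 in ALG6/UGGT2-/- and 0 and 3 in ALG6/UGGT1/UGGT2-/- cells, with medians of -0.80, 0.35, -0.0103 and -0.08. Of all genes tested, 15.1% and 45.7% were called higher and lower in ALG6-/- cells. There the list had 5 higher and 10 lower after the length and GC correction (all genes 32.6% and 29.0%). After median ratio scaling it had 2 and 9 (all genes 26.6% and 25.6%). On the CPM scale 5% of the list was higher and 10% lower in ALG6/UGGT1-/- cells, beside 10.3% and 13.8% of all genes. In ALG6/UGGT2-/- cells it was 0% and 5%, beside 6.14% and 7.75%. ALG6/UGGT1/UGGT2-/- cells had 0% and 15%, beside 13.5% and 22.0%. The largest in ALG6-/- cells were SLC35D1 -1.99 (SE 0.47, adjusted p = 0.00313, -1.55 from the all-gene median), a carrier of UDP-glucuronic acid and UDP-N-acetylgalactosamine, COG3 -1.77 (SE 0.34, adjusted p = 0.000762, -1.33 from the all-gene median) and SLC10A7 -1.34 (SE 0.31, adjusted p = 0.00254, -0.90 from the all-gene median), which acts in Golgi calcium balance. In ALG6/UGGT1-/- cells they were SLC35D2 -1.39 (SE 0.10, adjusted p = 1.95e-06), COG8 -1.21 (SE 0.24, adjusted p = 0.00301) and COG1 0.33 (SE 0.073, adjusted p = 0.00569), and in ALG6/UGGT2-/- cells SLC35A4 -0.50 (SE 0.066, adjusted p = 0.000364). ALG6/UGGT1/UGGT2-/- cells had COG7 -0.75 (SE 0.10, adjusted p = 0.000116), COG1 -0.68 (SE 0.073, adjusted p = 1.49e-05) and SLC35A4 -0.49 (SE 0.066, adjusted p = 9.47e-05). SLC35D1 against ALG6-/- cells was at 2.96 (SE 0.47, adjusted p = 0.000124, 2.44 from the all-gene median), 2.52 (SE 0.47, adjusted p = 0.000507, 2.06 from the all-gene median) and 2.52 (SE 0.47, adjusted p = 0.000745, 2.16 from the all-gene median) in the 3 multiple knockout lines. COG3 followed with 2.24 (SE 0.34, adjusted p = 8.48e-05, 1.72 from the all-gene median), 1.70 (SE 0.34, adjusted p = 0.000798, 1.25 from the all-gene median) and 1.29 (SE 0.34, adjusted p = 0.00658, 0.93 from the all-gene median). The other gene of the largest 3 in each line was SLC39A9 1.95 (SE 0.36, adjusted p = 0.000413, 1.44 from the all-gene median), a zinc carrier, in ALG6/UGGT1-/- and SLC39A9 1.99 (SE 0.36, adjusted p = 0.00042, 1.53 from the all-gene median) in ALG6/UGGT2-/- cells, and TMEM165 1.29 (SE 0.15, adjusted p = 2.02e-05, 0.93 from the all-gene median), needed for Golgi manganese, in ALG6/UGGT1/UGGT2-/- cells. With length and GC content corrected, the values that moved by over 1.5 times or lost their call were SLC35D1 -1.13, COG3 -0.96 and SLC10A7 -0.56 in ALG6-/- against WT, SLC35D1 1.77, COG3 1.14 and SLC39A9 0.93 in ALG6/UGGT1-/- against ALG6-/-, SLC35D1 1.52, SLC39A9 1.10 and COG3 0.78 in ALG6/UGGT2-/- against ALG6-/-, and SLC35D1 1.57 and COG3 0.44 in ALG6/UGGT1/UGGT2-/- against ALG6-/- cells. Median ratio scaling ended the calls of COG1 0.26 (adjusted p = 0.271) in ALG6/UGGT1-/- against WT, SLC35A4 -0.52 (adjusted p = 0.0712) in ALG6/UGGT2-/- against WT, and SLC35A4 -0.45 (adjusted p = 0.0523) in ALG6/UGGT1/UGGT2-/- against WT cells. The members of all lists share the libraries described above, and the part of the ALG6-/- shift in these counts was not tested.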

How the data were processed

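Poly(A) mRNA of 5 HEK293-EBNA1-6E lines, 3 biological replicates each, was sequenced on 4 lanes per library. The authors aligned and quantified the reads with STAR and RSEM on hg38 and deposited edgeR CPM values per gene, with no further normalization stated, and tool versions are not given in the sources used here. Whole reads were judged among nonzero CPM values up to a set number of estimated reads, and higher values were left out. From 89.1 to 90.6% of the values judged were whole reads (within 0.02 of a whole number). This was too few to restore counts, so no count test was run. In the same table, 8 value columns that match no sample of this study were left out.

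Lines were compared with limma 3.58.1 (R 4.3.3) on log2(CPM + 0.5) with a variance trend, the cell line as the only factor and all 15 libraries in 1 fit, for the 14692 genes that reached 1 CPM in 3 or more libraries. P-values were adjusted by Benjamini-Hochberg over all these genes in each of 7 comparisons and an F test, with calls at an adjusted p under 0.05. The members and lists were chosen with earlier results of these data known.

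Values in every library are given for genes that passed the F test, reached a mean of 5 CPM in some line and differed at least 1.5 times between the highest and the lowest line mean, with fold changes for up to 10 called per comparison. Of the 3 pathway lists, up to 3 called genes of at least 5 CPM with the largest change are named. Other genes with values were added after these had been seen.

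Alternatives were pseudocounts of 0.1 and 2, no filter, a filter at a mean of 5 CPM, median ratio scaling, quantile normalization, the replicate number as a block, no variance trend, only the lines compared, each of the 15 libraries left out, WT replicate 3 and ALG6-/- replicate 2 both left out, and splines (5 degrees of freedom) of transcript length and GC content removed from each library. Positions and transcripts are from GENCODE 44 on GRCh38. Scripts were tested on simulated data.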

Additional observations from a re-analysis of the deposited data

Results flagged for a closer look

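The loss of UGGT2 had unlike effects in cells with and without UGGT1 for 20 of the 32 genes, by limma's test of the difference between the effects, a comparison added after the values had been seen. Of the 32 genes 8 were higher and 12 lower, beside 20.3% and 46.6% of all genes tested, so the count is near the background and is no result about these genes. The values are the effect without UGGT1 minus that with it, on the log2 scale, where the median of all genes was -0.60. Among the higher were the branching enzymes MGAT4B 2.09 (SE 0.10, adjusted p = 4.78e-09) and MGAT1 1.17 (SE 0.15, adjusted p = 1.62e-05). Sialyltransferases followed, with ST3GAL3 1.45 (SE 0.14, adjusted p = 1.40e-06), ST6GAL1 1.36 (SE 0.15, adjusted p = 4.17e-06), ST3GAL1 0.74 (SE 0.16, adjusted p = 0.00142) and ST3GAL2 0.72 (SE 0.15, adjusted p = 0.00109). The galactosyltransferases B4GALT3 0.84 (SE 0.12, adjusted p = 3.82e-05) and B4GALT2 0.59 (SE 0.13, adjusted p = 0.00182) were higher as well. On the lower side, the branching enzymes had MGAT2 -2.70 (SE 0.24, adjusted p = 9.31e-07) and MGAT3 -1.55 (SE 0.12, adjusted p = 2.98e-07). All 4 carriers were there, with SLC35A3 -1.80 (SE 0.44, adjusted p = 0.00319), SLC35A1 -1.31 (SE 0.22, adjusted p = 0.000221), SLC35A2 -0.95 (SE 0.096, adjusted p = 2.59e-06) and SLC35C1 -0.90 (SE 0.14, adjusted p = 0.000132). Of the sialic acid enzymes, GNE -1.71 (SE 0.30, adjusted p = 0.000279), NANS -1.24 (SE 0.14, adjusted p = 5.47e-06) and CMAS -0.72 (SE 0.28, adjusted p = 0.0379) were lower. The remaining values were B4GALT5 -1.74 (SE 0.22, adjusted p = 1.86e-05), MANEA -0.63 (SE 0.25, adjusted p = 0.0401) and B4GALT1 -0.59 (SE 0.13, adjusted p = 0.00163). After the length and GC correction the calls were lost for SLC35A3 -0.13 (adjusted p = 0.462), SLC35A1 -0.12 (adjusted p = 0.393), CMAS 0.08 (adjusted p = 0.521) and B4GALT1 -0.12 (adjusted p = 0.387), and MANEA 0.85 (adjusted p = 2.70e-05) was called with the opposite sign. Median ratio scaling ended the calls of SLC35A2 -0.39 (adjusted p = 0.114), SLC35C1 -0.34 (adjusted p = 0.262), CMAS -0.16 (adjusted p = 0.497), MANEA -0.08 (adjusted p = 0.812) and B4GALT1 -0.02 (adjusted p = 0.923). Set against the all-gene median, the 20 differences ran from -2.09 for MGAT2 to 2.69 for MGAT4B. B4GALT1 at 0.015, MANEA at -0.028 and CMAS at -0.11 lay nearest to that median. Each of the 20 differences involves the ALG6-/- libraries, and the part of their shift in it was not tested. Every line is 1 clone, so genotype and clone cannot be told apart in these differences.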

How the results depend on the processing

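The direction and the call of 30 of the 61 named fold changes held in every alternative, and 4 turned direction, all with the length and GC correction: B4GALT5 in ALG6-/- against WT to 0.016 (limma, adjusted p = 0.818), SLC35A3 in ALG6/UGGT1-/- against ALG6-/- to -0.040 (adjusted p = 0.747), and MAN1A2 to -0.37 (adjusted p = 0.00238) and -0.11 (adjusted p = 0.292) in ALG6/UGGT1-/- and ALG6/UGGT1/UGGT2-/- against ALG6-/-. Of the 17 counts under the 11 settings that leave out no single library, 141 of 184 values stayed within 1.5 times of the value given above. After median ratio scaling the counts that moved by over 1.5 times were 8 higher and 4 lower in ALG6-/- against WT, 2 higher and 3 lower in ALG6/UGGT1-/- against WT, 1 lower in ALG6/UGGT2-/- against WT, 2 higher and 2 lower in ALG6/UGGT1/UGGT2-/- against WT, 8 higher in ALG6/UGGT1-/- against ALG6-/-, 6 higher and 11 lower in ALG6/UGGT2-/- against ALG6-/-, 4 higher in ALG6/UGGT1/UGGT2-/- against ALG6-/- and 7 lower for the effect of UGGT2 loss without UGGT1 minus that with UGGT1. All-gene shares higher and lower there were 26.6% and 25.6%, 7.35% and 8.29%, 3.27% and 3.59%, 12.7% and 15.4%, 34.1% and 32.4%, 30.3% and 30.3%, 26.1% and 28.0% and 29.7% and 30.8%, in the order in which the counts with each library left out are given. After quantile normalization the counts that moved by over 1.5 times were 8 higher and 4 lower in ALG6-/- against WT, 2 lower in ALG6/UGGT2-/- against WT, 2 higher in ALG6/UGGT1/UGGT2-/- against WT, 7 higher and 11 lower in ALG6/UGGT1-/- against ALG6-/-, 5 higher and 11 lower in ALG6/UGGT2-/- against ALG6-/-, 5 higher in ALG6/UGGT1/UGGT2-/- against ALG6-/- and 7 lower for the effect of UGGT2 loss without UGGT1 minus that with UGGT1. All-gene shares higher and lower there were 26.6% and 23.7%, 10.1% and 14.7%, 5.42% and 5.89%, 16.4% and 17.7%, 31.8% and 34.1%, 28.6% and 31.2%, 24.6% and 27.2% and 32.4% and 30.0%, in that order. After the length and GC correction the counts that moved by over 1.5 times were 17 higher and 5 lower in ALG6-/- against WT, 8 higher in ALG6/UGGT1-/- against WT, 5 higher in ALG6/UGGT2-/- against WT, 7 higher and 8 lower in ALG6/UGGT1/UGGT2-/- against WT, 7 higher and 17 lower in ALG6/UGGT1-/- against ALG6-/-, 7 higher and 14 lower in ALG6/UGGT2-/- against ALG6-/-, 4 higher and 13 lower in ALG6/UGGT1/UGGT2-/- against ALG6-/- and 17 higher and 7 lower for the effect of UGGT2 loss without UGGT1 minus that with UGGT1. All-gene shares higher and lower there were 32.6% and 29.0%, 16.7% and 17.8%, 12.7% and 11.4%, 25.9% and 22.9%, 34.0% and 37.2%, 32.3% and 35.8%, 29.6% and 31.0% and 36.5% and 33.0%, in that order. With only the libraries of the lines compared, ALG6/UGGT2-/- against WT gave 1 higher and 0 lower (limma, 4 at an unadjusted p under 0.05), and ALG6/UGGT1/UGGT2-/- against ALG6-/- gave 7 higher. Genes lower in ALG6/UGGT2-/- than in WT numbered 1 with no filter, 2 with no trend in the variance prior and 1 with the replicate block, and with WT replicate 3 and ALG6-/- replicate 2 both left out 8 were lower in ALG6/UGGT1/UGGT2-/- than in WT. With each library left out in turn the counts were 4 to 5 higher and 8 to 15 lower in ALG6-/- against WT, 2 to 6 higher and 3 to 7 lower in ALG6/UGGT1-/- against WT, 1 to 3 higher and 0 to 4 lower in ALG6/UGGT2-/- against WT, 2 to 5 higher and 4 to 6 lower in ALG6/UGGT1/UGGT2-/- against WT, 12 to 20 higher and 7 to 8 lower in ALG6/UGGT1-/- against ALG6-/-, 10 to 16 higher and 7 to 9 lower in ALG6/UGGT2-/- against ALG6-/-, 9 to 17 higher and 4 to 6 lower in ALG6/UGGT1/UGGT2-/- against ALG6-/- and 8 higher throughout and 10 to 13 lower for the UGGT2 effect without UGGT1 minus that with it, and 22 to 28 passed the F test. Single libraries moved 6 of these counts by over 1.5 times. Genes higher in ALG6/UGGT1-/- than in WT numbered 3 without WT replicate 3 or ALG6/UGGT1-/- replicate 1 or 3 and 2 without its replicate 2, and genes lower there numbered 3 without WT replicate 2 or ALG6/UGGT1-/- replicate 3 and 4 without its replicate 1. In ALG6/UGGT2-/- against WT, 1 gene was higher and 0 lower (limma, 5 at an unadjusted p under 0.05) without ALG6/UGGT2-/- replicate 3, 2 were lower without WT replicate 1 or 3 or ALG6/UGGT1-/- replicate 1, and 1 was lower without any 1 of 8 other libraries (WT replicate 2, ALG6-/- replicate 3, ALG6/UGGT1-/- replicates 2 and 3, ALG6/UGGT2-/- replicate 2, and each of ALG6/UGGT1/UGGT2-/-). Without WT replicate 3, 2 genes were higher in ALG6/UGGT1/UGGT2-/- than in WT, and without ALG6-/- replicate 1, 17 were higher than in ALG6-/-. Replicate numbers showed no common pairing over the 5 lines. The deviations of same-numbered libraries from their line means correlated by more than 0.1 in 14 of 30 pairs (r from -0.75 to 0.745, mean -0.0506). Other numbers had a mean of 0.0473. Deviations within a line sum to 0, which pushes the values for other numbers to the opposite sign. They are therefore no independent comparison. The clearest exception was ALG6/UGGT1-/- with ALG6/UGGT2-/-, whose same-numbered libraries correlated in all 3 pairs (r = 0.745, 0.458 and 0.52). Other numbers gave -0.579, -0.0614 and -0.0852, which for the same reason adds no separate evidence. ALG6/UGGT1/UGGT2-/- libraries correlated weakly by number with both lines (r = 0.297, 0.175 and 0.0728, then 0.237, 0.191 and 0.00677). This is a hint from the data and not from the labels. No pairwise comparison sets ALG6/UGGT1-/- against ALG6/UGGT2-/-, but the difference in UGGT2 effect uses both, with ALG6/UGGT1/UGGT2-/-. The test of that difference took the libraries as independent. The replicate block ended 5 of 71 named calls, left 23 genes past the F test and gave 8 higher and 12 lower for the difference in UGGT2 effect. The cause of these changes was not tested. As to depth, 1 CPM was worth at least 23.6 estimated reads and the lowest value of the 32 genes was 3.77 CPM, and 3 libraries of 1 clone per line limit the precision of each difference.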
